A study of Drosophila melanogaster with 10 samples.

Results

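The regions described here are ATAC-seq summits at long noncoding RNA (lncRNA) genes that stand away from the ends of protein-coding genes in Drosophila S2 cells, a line derived from embryos with traits of hemocytes (blood cells). In ATAC-seq the transposase Tn5 inserts adapters into accessible DNA, and a summit is a position of locally highest signal within a peak. Genes were taken from the RefSeq table of the dm6 assembly when their symbol starts with lncRNA: and both of their boundaries lie more than 1000 bp from any boundary of a protein-coding gene. Of 1947 lncRNA genes, 1253 (64.4%) met this rule and are called isolated lncRNA genes. The members are the 554 summits within 500 bp of a boundary of these genes, which are 1.39% of the 39806 summits deposited, and they fall into 267 of the 15615 peaks. By position, 264 members lie inside a protein-coding gene and 290 lie outside.

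The study treated S2 cells for 5 days with double-stranded RNA at 10 µg/mL against LACZ, GAF, BAP170, NURF301, or NURF301+BAP170, with 2 separate knockdowns each, harvested as pooled flasks, and therefore 10 libraries. LACZ RNAi is the control, since flies have no such gene. GAF is a transcription factor that binds GA repeats and opens promoters, BAP170 is a subunit of the Brahma-type remodeler PBAP, and NURF301 is a subunit of the ISWI-type remodeler NURF. All groups share the line and exposure to double-stranded RNA. The authors deposited 1 list of summits called on all libraries together, so the values have no replicates, no condition can be compared with another, and the depth of each library is unknown. For that reason the comparisons below are counts and medians, without a test across samples.

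LncRNAs are transcripts longer than typical small RNAs that are not translated into conserved proteins. Many are made at low levels in a single tissue, and their genes often lie within introns of coding genes or in the long gaps between them. Active RNA polymerase II promoters and enhancers both appear as accessible DNA, and some lncRNA genes give rise to microRNAs or snoRNAs that are cut from the primary transcript. The gene table holds no strand and no exons, so the start of a gene could not be told from its end, and a summit inside a coding gene could not be placed in an exon, an intron or an internal promoter.

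The peak caller scored summits by the q value, written as −log10, and the score was used only to rank summits within this list. Over all summits its median was 21.9 and its highest value 80130. Of the labelled cells' marker genes, 5 of 8 hemocyte genes had a summit within 500 bp of a boundary (srp, Hml, Pxn, Pvr, and ush, with highest scores from 14.0 to 513), while NimC1, Col4a1, and vkg had none there. Since 59.9% of all protein-coding genes had a summit that close, this count does not tell the cell type. Of 7 genes of other cell types, elav and vas had one, with highest scores of 50.6 and 64.4.

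Most isolated lncRNA genes had no summit at either end. A summit lay within 500 bp of a boundary of 233 of 1253 genes (18.6%), and a summit at or above the median score of the list lay there in 137 genes (10.9%). Over all 17872 genes of the table these shares were 54.2% and 44.9%, and over all 13962 protein-coding genes 59.9% and 50.4%. Coding genes often stand close together and share summits with neighbors, so the nearer comparison is with the 2721 protein-coding genes that keep the same distance from other coding genes. Of these isolated coding genes, 785 had a summit (28.8%), and 21.2% had one at or above the median score. The 694 lncRNA genes that are not isolated had a summit in 38.8% of cases and a higher-scoring one in 28.5%. Antisense RNA genes (symbols starting with asRNA:) under the same isolation rule had a summit in 37 of 102 cases (36.3%), and 23.5% had one at or above the median score. They were longer than the isolated lncRNA genes (median 1037 bp against 667 bp), and their place inside or outside coding genes was not counted. Of these 6 gene sets, the isolated lncRNA genes had the lowest share on both counts. The median distance from an isolated lncRNA gene to its nearest summit was 5029 bp, against 3364 bp for isolated coding genes and 1192 bp for the other lncRNA genes. For 260 isolated lncRNA genes (20.8%) no summit lay within 20000 bp, or the gene lies on a sequence that could not be matched to the list, which was the case for 1 gene.

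**Figure D1:**
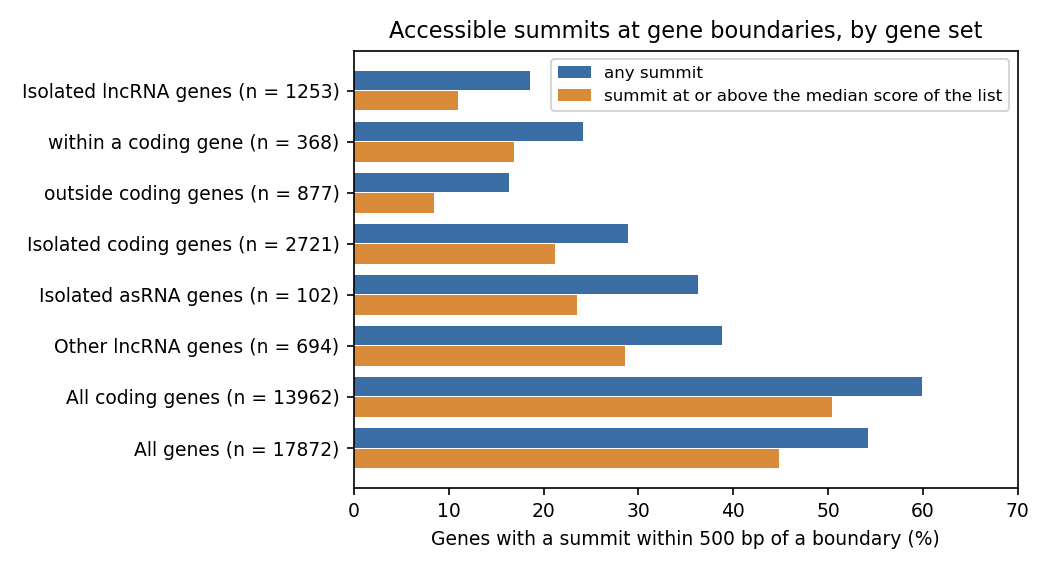
Share of genes (x axis, percent) with a summit within 500 bp of either boundary, for 8 gene sets (y axis, n is the number of genes). Blue bars count any summit and orange bars count summits at or above the median score of the list; isolated lncRNA genes reach 18.6% and 10.9%, isolated coding genes 28.8% and 21.2%.

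Gene length moved with this difference. Isolated lncRNA genes had a median length of 667 bp and isolated coding genes 1846 bp, and a short gene has overlapping windows at its ends, so less DNA was searched around it (median 1667 bp against 2002 bp). Among genes of up to 500 bp, 16.7% of 371 isolated lncRNA genes and 16.3% of 141 isolated coding genes had a summit. Between 500 and 1000 bp the lncRNA genes were higher, at 16.6% of 553 against 12.1% of 593. Between 1000 and 2000 bp the shares were 20.3% of 202 and 22.5% of 690. Among genes over 2000 bp they were 29.9% of 127 and 41.2% of 1297. The gap between both kinds of gene therefore stood in the longest class. That class has no upper limit and is not matched in length, with medians of 3575 bp for the lncRNA genes and 6408 bp for the coding genes. For genes of 2000 bp or less together, a limit chosen after seeing the data, the share of lncRNA genes minus that of coding genes was -0.24 percentage points (95% interval -3.18 to 2.75), in place of -10.3 points (-12.9 to -7.45) over all lengths. The intervals cover counting error only and treat genes as independent. Isolated lncRNA genes with more than 1 annotated transcript had a summit in 35 of 150 cases (23.3%), and those with 1 transcript in 198 of 1103 (18.0%), and the former were also longer (median 1230 bp against 634 bp).

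**Figure D2:**
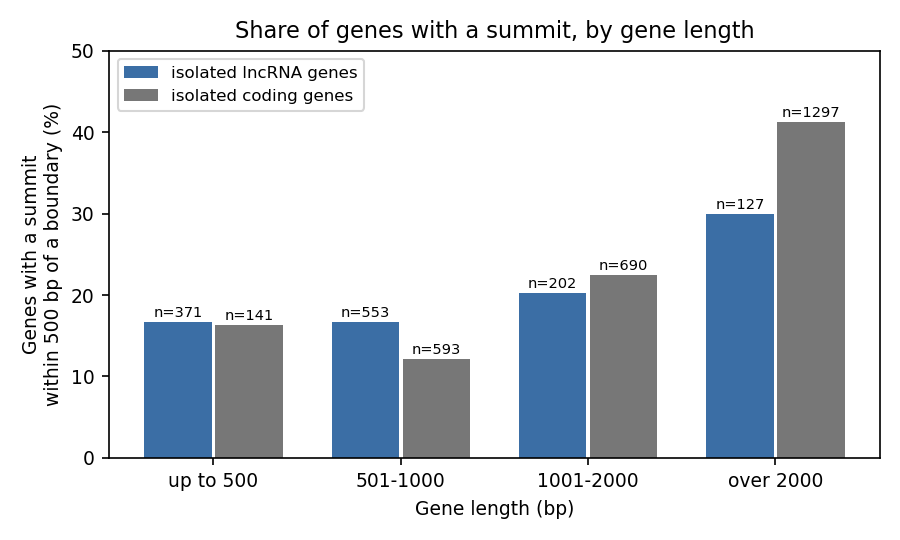
Share of genes that have a boundary within 500 bp of a summit (y axis, percent) in 4 classes of gene length (x axis, bp), for isolated lncRNA genes (blue) and isolated coding genes (gray), with n above each bar. Bars of both kinds are within 5 percentage points of each other up to 2000 bp, and at 29.9% and 41.2% above 2000 bp.

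Over all bases, summit density near these boundaries was close to that 1000 to 5000 bp away, but the result depends on the bases compared. Within 500 bp of isolated lncRNA boundaries there were 278 summits per Mb, and 1000 to 5000 bp away there were 253, a ratio of 1.10 (95% interval 1.00 to 1.21, with summits taken as independent). Over all bases of the 6 chromosome arms (2L, 2R, 3L, 3R, X, and 4) the density was 295 per Mb. At isolated coding genes the density was 340 per Mb within 500 bp and 242 per Mb at 1000 to 5000 bp, a ratio of 1.40, and it was highest in the first 100 bp from the boundary, at 441 per Mb. The first 100 bp at isolated lncRNA boundaries held 250 summits per Mb, below the 303 per Mb between 100 and 250 bp. The other lncRNA genes, which stand near coding genes, had 589 per Mb within 500 bp and a ratio of 1.49. A boundary of an isolated lncRNA gene lay within 500 bp of a summit in 357 of 2502 cases (14.3%), while 15.2% of all bases on the arms, and 10.4% of bases more than 1000 bp from coding boundaries, lay that close to one. Which comparison is used matters, because the isolation rule keeps the boundaries of coding genes out of the member windows but not out of the flanks. Promoters internal to a coding gene are not removed by the rule. When bases within 500 bp of a coding boundary were left out everywhere, the flank had 212 summits per Mb and the ratio was 1.31, a comparison added after seeing the data. These ratios count every summit of a peak. With only the highest summit of each peak, the ratio over all bases was 1.00 (95% interval 0.86 to 1.17).

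**Figure D3:**
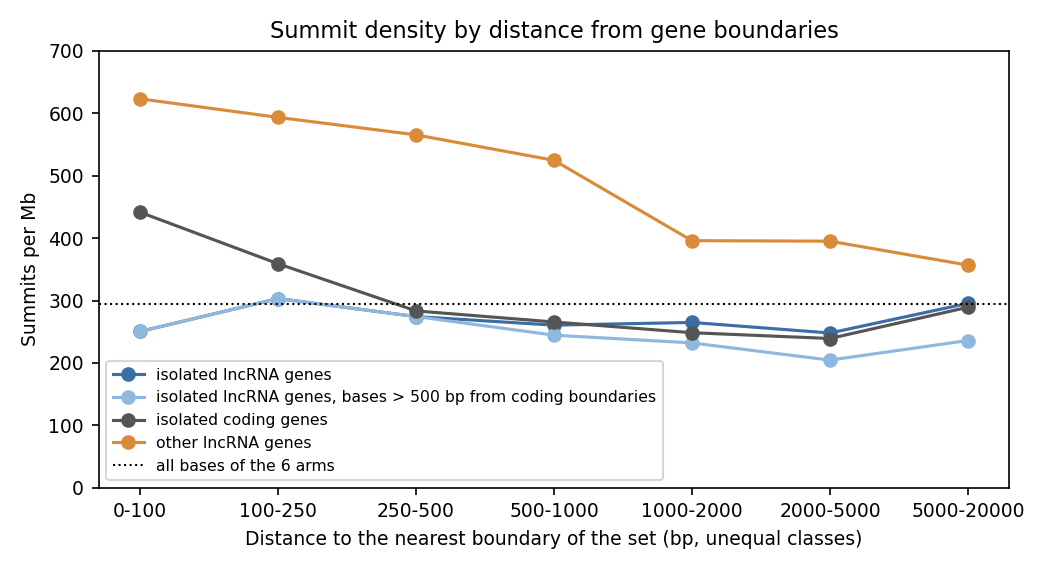
Summit density (y axis, summits per Mb) by distance to the nearest gene boundary (x axis, bp in 7 unequal classes) for isolated lncRNA genes over all bases (dark blue) and over bases more than 500 bp from coding boundaries (light blue), isolated coding genes (gray) and other lncRNA genes (orange), with the density of all bases as a dotted line. The density at isolated coding genes is 441 per Mb in the first class and 239 per Mb at 2000 to 5000 bp, while at isolated lncRNA genes it starts at 250 and is 248 per Mb at 2000 to 5000 bp.

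Isolated lncRNA genes inside coding genes had a summit more often than those outside, by count. Of the 1253 genes, 368 lie wholly within a protein-coding gene, 877 lie outside all of them, and 8 overlap one in part. Genes within a coding gene had a summit in 89 cases (24.2%) and a summit at or above the median score in 16.8%. Genes outside had one in 143 cases (16.3%), and one at or above the median score in 8.44%. Of the 8 that overlap in part, 1 had a summit. The members themselves were 47.7% inside, whereas 80.3% of the other summits more than 500 bp from any coding boundary were inside. The windows of the isolated lncRNA genes are placed differently from the rest of that DNA, with 69.6% of their bases outside coding genes against 33.5% of all bases more than 500 bp from coding boundaries. The following densities count only bases more than 500 bp from coding boundaries. Inside coding genes the member density was 436 summits per Mb, against 268 per Mb elsewhere inside and 292 per Mb in the inside flank 1000 to 5000 bp from the lncRNA boundary, ratios of 1.63 and 1.49. Outside coding genes it was 209 per Mb, against 126 per Mb elsewhere outside and 157 per Mb in the outside flank, ratios of 1.66 and 1.33. Counting every summit of a peak, the windows in both places thus held more summits per base than their surroundings. With only the highest summit of each peak, the ratio to the flank over all bases was 1.00. The split by place was not recounted in that way. Over bases more than 500 bp from coding boundaries, the ratio to the flank was 1.31 for both places together, below the ratio in either place. Windows and flanks are divided differently between the places. The windows had 605496 bases inside and 1386612 outside, and the flanks 2899483 and 4147261.

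Scores of members reached 2733, below the highest value of the list. The median was 23.5, with quartiles at 6.82 and 86.0, and 124 members (22.4%) scored at least 100. Over all summits 19.8% scored at least 100. Summits more than 500 bp from any coding boundary that are not members had a median of 14.3, and 13.0% of them scored at least 100. Members inside coding genes had a median of 29.0, against 13.7 for the other inside summits. Members outside had a median of 19.0, against 17.1 for the other outside summits. The contrast with other summits away from coding boundaries was thus wider inside coding genes than outside, and its difference was not tested. Summits at isolated coding boundaries had a higher median than the members, at 40.0, and so did summits at the other lncRNA genes, at 41.6. Beyond the member windows, medians over both places together were lower farther from the lncRNA boundary. Among summits more than 500 bp from coding boundaries the median was 24.6 at 500 to 1000 bp, 19.6 at 1000 to 2000 bp, and 15.2 at 2000 to 5000 bp from an isolated lncRNA boundary. Inside coding genes the order did not hold throughout, with medians of 21.7, 23.5, and 16.3 at these distances. Outside they were 24.6, 17.2, and 13.6, and the first was above the 19.0 of the members there. Within the windows there was no such order, with medians of 17.4 up to 100 bp, 34.5 from 100 to 250 bp, and 21.1 from 250 to 500 bp.

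**Figure D4:**
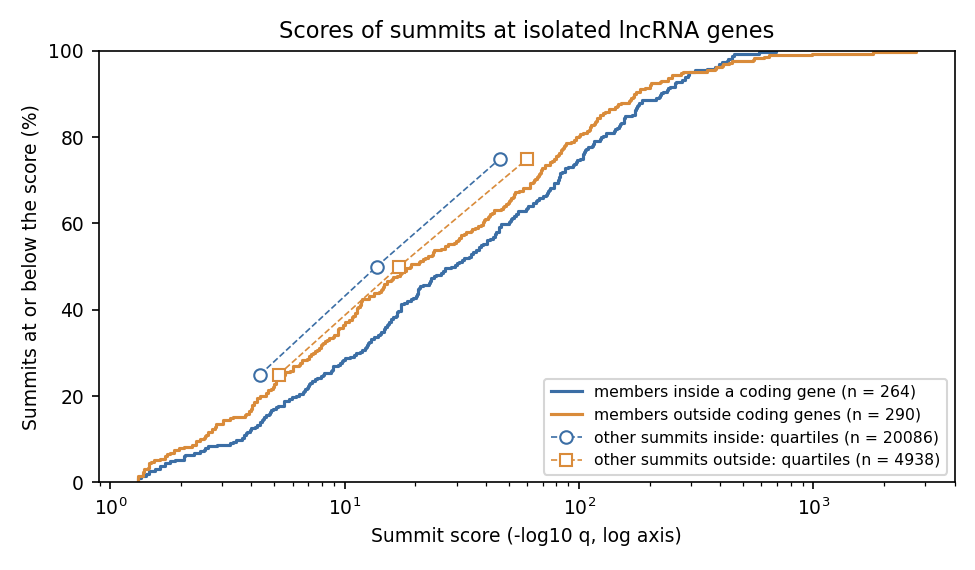
Cumulative share of member summits (y axis, percent) by score (x axis, −log10 q, log axis), for the 264 members inside a coding gene (blue line) and the 290 outside (orange line). Open symbols mark the quartiles of other summits more than 500 bp from any coding boundary, inside (circles, median 13.7) and outside (squares, median 17.1); the medians of the member lines are 29.0 and 19.0.

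Members often came in groups. Of the 233 genes with a summit, 81 had a single one, 152 had 2 or more, and 26 had 5 or more. Single-summit peaks supplied 92 members (16.6%), about as in the whole list (16.7%). Inside coding genes 11.0% of members were the only summit of their peak, against 21.7% outside. The other summits more than 500 bp from coding boundaries were split likewise, at 15.0% inside and 23.8% outside. Both sides of the boundary held members, with 259 members within the lncRNA gene and 295 beside it, and their median scores were 29.2 and 20.7. These counts were not adjusted for the bases searched. With a median gene length of 667 bp and a median of 1667 bp searched, less DNA was searched within the genes than beside them. Of the 329 isolated lncRNA genes over 1000 bp long, whose end windows do not overlap, 27 had a summit only at the lower-coordinate end, 26 only at the higher, and 26 at both. Neighboring lncRNA genes shared some members, since 21 summits lay within reach of more than 1 isolated lncRNA gene.

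Shares were also counted by chromosome arm. On 2R, 46 of 169 isolated lncRNA genes had a summit (27.2%), on 3L 63 of 312 (20.2%), on 2L 60 of 346 (17.3%), and on 3R 47 of 287 (16.4%). Isolated coding genes had these arms in the same order, at 34.3% on 2R, 32.5% on 3L, 30.8% on 2L, and 25.5% on 3R. On X 15 of 131 did (11.5%), against 19.4% on the 4 large autosome arms. For isolated coding genes the shares were 21.0% on X and 30.5% on these autosome arms. Members on X had a median score of 12.3, and all summits on X had a median of 18.0. The small chromosome 4 had a summit at 2 of its 6 isolated lncRNA genes.

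Of the 22 isolated lncRNA genes whose symbol is a name and not a CR number, 3 had a summit within 500 bp of a boundary (13.6%), near the 230 of 1231 (18.7%) among those with a CR number. The 13 genes named TS, a series of lncRNAs described in testis, had none, and the nearest summit lay from 2394 to 72214 bp away, with a median of 15479 bp. All 13 lie outside coding genes, and the other 864 isolated lncRNA genes there had a median distance of 5828 bp. Of all 877 isolated lncRNA genes outside coding genes, only 16.3% had a summit within 500 bp. The 13 genes are too few to set their share apart from that. Also without a summit that close to a boundary were flam, a long source of piRNAs that silence transposons in ovarian follicle cells, bxd and iab4 of the bithorax complex, sphinx, which affects male courtship, yar, which lies between yellow and achaete, and noe. Their nearest summits were 1513 bp (flam), 6602 bp (bxd), 1274 bp (iab4), 2623 bp (sphinx), 740 bp (yar), and 5961 bp (noe) from a boundary.

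The 3 named genes that had one were acal, Irar, and the alphagamma-element. The acal RNA acts on Jun kinase signaling during dorsal closure of the embryo, and its gene (2R from 10544925 to 10547260) lies outside coding genes, 1634 bp from lola. It had summits at 10545031 (score 5.00) and 10545282 (score 38.2), both within the gene. Beyond 500 bp from the boundary, the same peak has 3 more summits within acal, which scored 109, 95.4, and 110. Irar (3R from 21592350 to 21594852) lies within InR, which encodes the insulin receptor, and had summits at 21591897 (score 13.3) and 21592160 (score 78.4), both just beyond its lower boundary. The alphagamma-element (lncRNA:alphagamma-element:CR32865, 3R from 12475336 to 12478267) belongs to the heat-inducible repeats of the 87C locus, with Hsp70Ba as its nearest coding gene, 7560 bp away. Its 1 member, at 12478123, scored 81.2. The same peak has 2 more summits within the gene, 754 and 663 bp from the nearer boundary and so not members, with scores of 4190 and 4153, both above every member score. How reads from repeated sequence were handled is unknown, which limits this comparison.

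Known lncRNA genes were also looked up, whether isolated or not. A list of 26 lncRNAs with described roles matched 22 genes of the table, of which 6 are isolated lncRNA genes and 16 are not. One isolated gene of the list, acal, had a summit, against 11 of the 16 others. The 11 are 7 Uhg genes, roX1, roX2, Hsromega, and Vinr, while iab8, cherub, let7C, CRG, and dntRL had none. Over the whole table the share was 18.6% for isolated lncRNA genes, 38.8% for other lncRNA genes, and 54.2% for all genes. The list is too short to set its shares apart from these. The highest score was 370 at Hsromega, the heat shock RNA that forms omega speckles. At roX1 and roX2, the pair of RNAs that guide dosage compensation to X, the highest scores were 238 and 41.3. All 7 matched Uhg genes, hosts of snoRNAs, had a summit, with highest scores from 4.24 (Uhg7) to 175 (Uhg8). Their symbols do not start with lncRNA:, so the rule could not have taken them. Coding boundaries lie within 1000 bp of these 16 genes, so the summits may belong to either gene.

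The highest scores of all members stood at the host gene of the bantam microRNA. Bantam promotes growth and blocks cell death, and it is cut from the transcript of lncRNA:CR43334 (3L from 628435 to 643900, outside coding genes). This gene had 2 members just beyond its lower boundary, at 628283 (score 2733) and 628064 (score 989). The second gene by score, lncRNA:CR42719 (3L from 615627 to 616646), lies in the same gap between coding genes. Of its 5 members, the summit at 616897, 251 bp beyond the higher boundary, scored 1795 and the summit at 616522 scored 437. High scores were not limited to the gene boundaries there. The stretch of 28274 bp from the start of lncRNA:CR42719 to the end of lncRNA:CR43334 held 37 summits with a median score of 158, and the 31 of these that are not members had a median of 152. In the 50000 bp on each side the median was 18.5 over 165 summits, and over all of 3L it was 19.4. This stretch was examined after its scores were seen. Without the members of both genes, the highest member score was 692 and the median was 23.3.

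Other isolated lncRNA genes that contain a microRNA gene were counted after the bantam values were seen. Of 19 such genes, 5 had a summit (26.3%), against 18.5% of the 1234 without a microRNA, and the genes with a microRNA were longer (median 8791 bp). Among all isolated lncRNA genes over 2000 bp the share was 29.9%. Besides the bantam host, the 5 were lncRNA:CR43650 with mir-8 (3 summits, highest score 200), lncRNA:CR43651 with mir-14 (12 summits, highest score 118), lncRNA:CR44206 with mir-184 (4 summits, highest score 57.4), and lncRNA:CR43314 with mir-bft (1 summit, score 4.60). The microRNAs of mir-8 and mir-14 act in growth and fat metabolism. The hosts of mir-1, a muscle microRNA, and of mir-124, a neuronal one, had none, with the nearest summit 5662 bp and 36896 bp away. Others without a summit include the hosts of mir-10, mir-iab-4, mir-276a, mir-276b, mir-315, and mir-316.

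The gene with the most members was the mir-14 host. All 12 summits of lncRNA:CR43651 (2R from 9552844 to 9553940) belong to 1 peak of 28 summits, with scores from 29.2 to 118. Next was lncRNA:CR44218, within kis, which encodes the chromodomain ATPase Kismet. Its 10 members had scores from 1.56 to 142. The 9 members of lncRNA:CR46036, within osa, which encodes the subunit that marks the BAP form of the Brahma remodeler, had scores from 16.5 to 223. Outside coding genes, lncRNA:CR43883 had 8 members in 1 peak of 16 summits, with scores from 82.3 to 221. On X, lncRNA:CR44619, which overlaps lncRNA:Vinr, also had 8, with scores from 11.3 to 68.9, and one of them (score 68.7) is also the summit counted at lncRNA:Vinr.

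**Figure D5:**
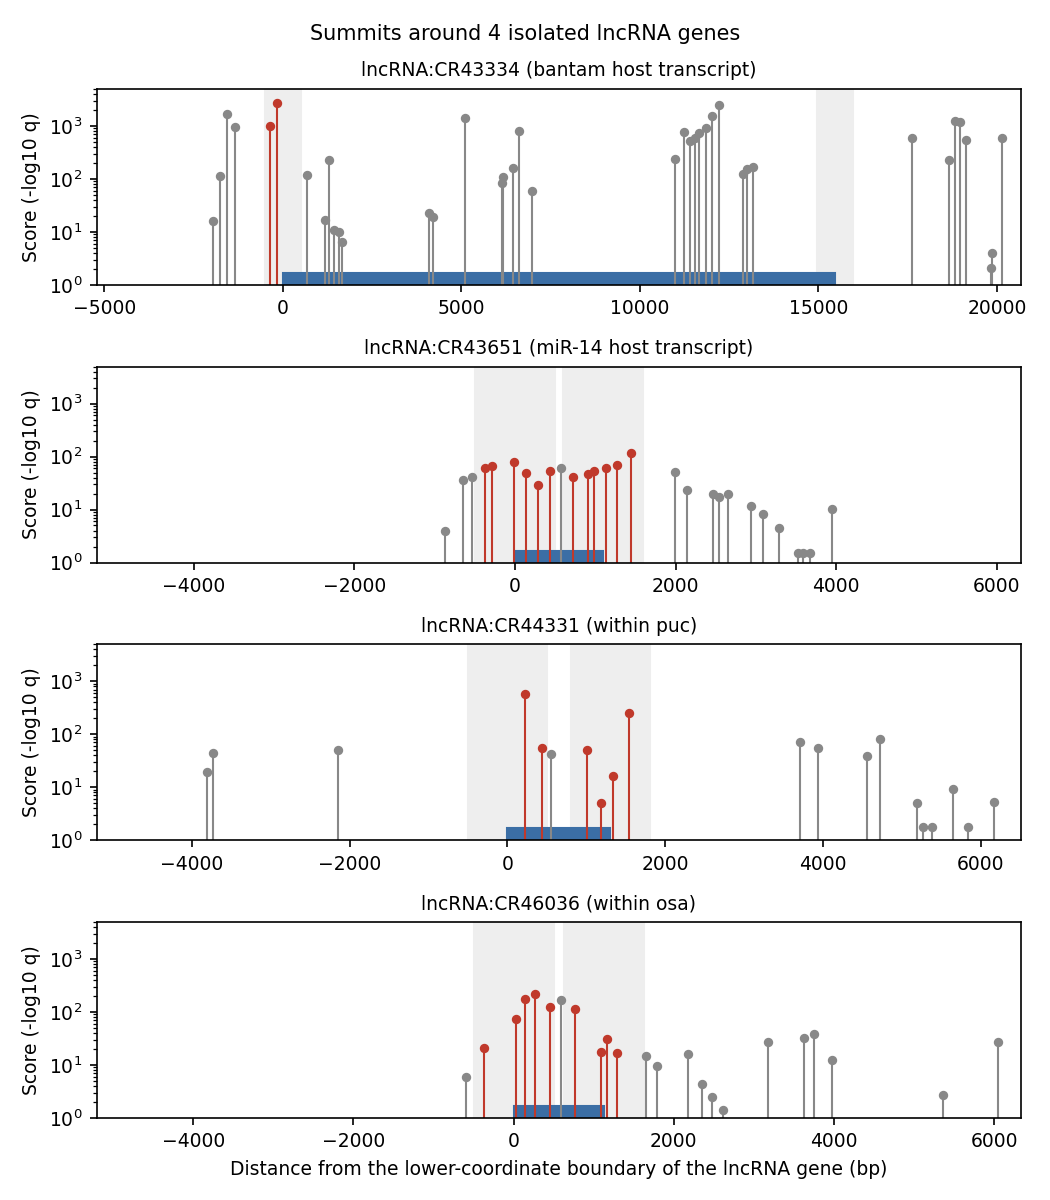
Summits around 4 isolated lncRNA genes by distance from the lower-coordinate boundary (x axis, bp) and score (y axis, −log10 q, log axis). Blue bars are the lncRNA genes, gray bands the 500 bp windows, red stems the members and gray stems other summits; the bantam host has its 2 members at 989 and 2733 and other summits of up to 2543 within the gene, the mir-14 host has 12 members between 29.2 and 118.

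The other genes with the highest scores are given with their host or nearest coding gene. After the bantam locus came lncRNA:CR42746, within bun, a TSC-22 family regulator, with summits of 692 and 89.4 at 12543324 and 12544111 on 2L. Next was lncRNA:CR45899, 1264 bp from the homeotic gene Antp, with summits of 643 and 410. The only member of lncRNA:CR46454, 2453 bp from salm, a zinc-finger transcription factor gene, scored 615 and lay 212 bp outside the lncRNA gene. A summit within the gene, 6968 bp from the nearer boundary, scored 8.88. lncRNA:CR44331 lies within puc, which encodes the phosphatase that limits Jun kinase signaling, and had 6 members with scores from 4.95 to 585. The highest scores of the others were 556 at lncRNA:CR44904 (nearest coding gene ham, for a zinc-finger factor), 550 at lncRNA:CR45541 (Hex-A, hexokinase), 459 at lncRNA:CR45128 (within Adf1, a transcription factor), and 450 at lncRNA:CR44339 (Psc, a Polycomb group gene). Of these 10 genes with the highest scores, 7 lie outside coding genes and 3 within one. The next 5 outside were lncRNA:CR46450 with a highest score of 407, lncRNA:CR31840 with 383, lncRNA:CR45737 with 277, lncRNA:CR45054 with 271, and lncRNA:CR45354 with 249. The nearest coding gene to lncRNA:CR45737 is sty, an inhibitor of receptor tyrosine kinase signaling, 6546 bp away.

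The 264 inside members fell into 79 coding genes, whose median length was 35272 bp. A summit inside more than 1 coding gene was given to the shortest. All protein-coding genes had a median of 2160 bp, but the isolation rule itself selects long hosts. A host must hold a lncRNA boundary more than 1000 bp from both of its own ends. Of these host genes 16 held a single member, and 17 held 5 or more and together 121 members. The hosts with most members, named after their counts were seen, were kis with 15, osa with 12, ush, which encodes the partner of GATA factors in blood cells, with 11, Hipk with 8, and InR and RhoGAP93B with 7 each. The median score of their members was 37.5 in kis, 28.5 in osa, 43.7 in ush, 19.4 in Hipk, 5.18 in InR, and 8.82 in RhoGAP93B, so a high number of members did not go with high scores in every host. The members in kis, osa, ush, Hipk, and InR lie at 2 isolated lncRNA genes each, and those in RhoGAP93B at 1. Counts were not adjusted for the number of lncRNA genes in a host. In CycE, which encodes cyclin E, 5 members had a median of 145, and in Eip63E, which encodes a cyclin-dependent kinase, 6 had a median of 169.

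The limit of 500 bp passed close to a few genes. Just inside it were lncRNA:CR44442, with its nearest summit 493 bp away and a score of 2.33, and lncRNA:CR43892, at 492 bp with a score of 15.1. Just outside were lncRNA:CR44545, at 525 bp, and lncRNA:CR42721, the host of mir-993, at 540 bp. In all, 65 genes had their nearest summit between 500 and 1000 bp from a boundary, 49 between 250 and 500 bp, 80 between 100 and 250 bp, and 104 within 100 bp. Another noncoding gene had a boundary within 1000 bp of 341 isolated lncRNA genes, of which 15.8% had a summit, against 19.6% of the 912 others.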

How the data were processed

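The submitters' processing notes name Bowtie2 2.3.5.1, deepTools 3.1.3, MACS2 2.1.0.20150731, DESeq2 1.26.0 and dm6, without the step each served. The authors deposited 1 list of summits with a score that is −log10 of the q value. Its peak names refer to all ATAC-seq data and the labels give it for each of the 10 libraries, so it was read as 1 calling over all of them. For read filters and the Tn5 shift, the sources used here give nothing. The score depends on read depth as well as on accessibility, and because the list is pooled, the depth and replicate error behind a value are unknown. Columns of values without a mapped sample numbered 0.

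Gene boundaries came from the RefSeq table of the same assembly (Release 6). A summit counted at a gene when it lay within 500 bp of either boundary, and inside a coding gene when it lay between its boundaries. Comparison sets were fixed by the same isolation rule. Arm lengths were taken as the last summit or gene end. Members and lists were chosen with earlier results of these data known. Genes named were those with a name, the 10 with the highest score, the 5 highest outside, the 5 with the most members, the listed lncRNAs and the 2 on each side of the 500 bp limit. The microRNA hosts outside this rule, the coding hosts and the bantam stretch were chosen after their values were seen. Intervals are Wilson intervals, combined for a difference by Newcombe's method and for a ratio taken from the share of summits near the boundary. Counting was tested on simulated data. Alternatives were windows of 250 and 1000 bp, summits scoring at least the list median, only the highest of each peak, isolation at 500 and 2000 bp, and genes without a noncoding neighbor. A comparison by gene start and a search for motifs need strand or sequence and were not run. Python 3.11.15, numpy 2.4.6, pandas 2.3.3 and matplotlib 3.10.9 were used.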

Additional observations from a re-analysis of the deposited data

How the results depend on the processing

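Alternatives for gene length, bases away from coding boundaries and the bantam locus were chosen after seeing the data. Leaving out a replicate could not be done. No paired analysis was possible because summits were called once on pooled libraries and the columns carry no replicate number. The intervals used to judge a move are 95% counting intervals, which treat genes and summits as independent. Of 35 settings listed at the outset over 5 results, 25 stayed within the interval of the main value and 10 moved outside it. Of 4 added later, 2 stayed and 2 moved, which are the values for genes of 2000 bp or less and for bases away from coding boundaries. The share of isolated lncRNA genes with a summit was 14.7% with a window of 250 bp, 23.8% with 1000 bp, 15.7% with the highest summit of each peak, 10.9% with summits at or above the median score, and 21.8% with isolation at 500 bp. With summits at or above the median score, the median score of members was 84.2, which follows from the selection. The share of members inside coding genes was 38.1% with the highest summit of each peak, 41.0% with isolation at 500 bp, and 54.2% for genes without another noncoding boundary within 1000 bp. The difference in share between isolated lncRNA and isolated coding genes was -7.33 percentage points for genes without such a neighbor and -0.24 points for genes of 2000 bp or less. The density ratio was 1.31 over bases more than 500 bp from coding boundaries. With the highest summit of each peak, over all bases, it was 1.00. The pooled list limits every value, since neither depth nor replicate spread can be given.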
